A study of Homo sapiens with 6 samples.

Results

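Introns of at most 100 nt are among the shortest that human cells remove, and 4598 of the 21158 retained intron events in the deposited table were of this kind. The 3049 of them with 20 or more junction reads in the average library of the 6 are described here, out of 12867 events of any length at that depth. The rule used length and depth, and it was set with earlier results of these data known. They lay in 1648 genes, and their inclusion, meaning the percentage of transcripts in which the intron stays, was compared between 3 libraries of cells given a non-target siRNA (siNT) and 3 of cells given a mix of siRNAs against SFSWAP (siSFSWAP). Both groups were HEK293A-TOA cells, which derive from human embryonic kidney, with siRNA at 40 nM, 5 days of knockdown and no inhibitor, and the labels give no difference between the groups but the siRNA. The study sequenced polyadenylated RNA of these cells to learn what SFSWAP, a nuclear protein with an RS domain, does in splicing. Retained transcripts without a poly(A) tail are therefore not part of these values.

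An intron is removed by the spliceosome, which recognises a 5′ splice site, a branch point and a 3′ splice site. When the intron is very short, both of its ends can be recognised together across the intron, a mode called intron definition, and short GC-rich introns are also those most often left in mature transcripts. A retained intron within coding sequence usually brings a stop codon or shifts the reading frame, so most such transcripts cannot make the full protein, and many stay in the nucleus.

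The sequences of 9 coding introns that were called lower in siSFSWAP are shown first, as examples from the 54 introns so called. Their GC content ranges from 61.2% to 77.1%, beside 51.1% to 85% over all 54. Positions are on GRCh38, the bases come from its reference genome, each sequence is read 5′ to 3′ on the strand of its gene, and capitals mark the first and last 2 bases, the splice site dinucleotides.
IFRD2 intron 3 (chr3:50290295-50290387, minus strand): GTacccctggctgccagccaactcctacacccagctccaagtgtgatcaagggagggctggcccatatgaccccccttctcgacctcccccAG
IFRD2 intron 2 (chr3:50290473-50290559, minus strand): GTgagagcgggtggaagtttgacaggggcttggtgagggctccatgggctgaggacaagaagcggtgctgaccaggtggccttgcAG
CDK10 intron 7 (chr16:89693327-89693397, plus strand): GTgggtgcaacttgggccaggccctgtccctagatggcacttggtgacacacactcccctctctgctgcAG
NDOR1 intron 4 (chr9:137213879-137213966, plus strand): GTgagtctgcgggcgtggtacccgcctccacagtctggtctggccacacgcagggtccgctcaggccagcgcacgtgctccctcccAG
WDR24 intron 4 (chr16:685991-686067, minus strand): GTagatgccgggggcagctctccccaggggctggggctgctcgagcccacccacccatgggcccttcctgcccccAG
ACADVL intron 18 (chr17:7224715-7224808, plus strand): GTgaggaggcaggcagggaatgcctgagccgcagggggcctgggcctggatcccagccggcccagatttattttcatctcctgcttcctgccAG
REXO1 intron 15 (chr19:1816155-1816224, minus strand): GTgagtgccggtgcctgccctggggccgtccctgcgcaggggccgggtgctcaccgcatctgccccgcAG
GGA1 intron 8 (chr22:37623468-37623551, plus strand): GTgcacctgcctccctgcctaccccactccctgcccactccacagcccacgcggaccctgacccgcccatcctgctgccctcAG
THOC6 intron 11 (chr16:3027281-3027365, plus strand): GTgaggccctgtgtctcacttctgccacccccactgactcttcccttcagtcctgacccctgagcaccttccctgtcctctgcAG

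For contrast, 5 introns picked for values in siSFSWAP close to those in siNT are shown in the same way. They do not stand for the uncalled introns at large. Those of SSB, EIF4G2 and OGT have 23.1%, 31.3% and 25.8% GC, while those of HES4 and PTBP1 have 71.8% and 69.9%, within the range of the introns above. The OGT intron was at 1.62% inclusion in siNT, so the fall of 20 points that a call required was not possible for it.
SSB intron 5 (chr2:169806893-169806970, plus strand): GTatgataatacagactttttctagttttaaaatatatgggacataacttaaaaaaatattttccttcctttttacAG
EIF4G2 intron 20 (chr11:10799114-10799212, minus strand): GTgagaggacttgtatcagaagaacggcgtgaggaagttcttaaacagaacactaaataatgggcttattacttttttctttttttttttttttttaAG
HES4 intron 2 (chr1:999614-999691, minus strand): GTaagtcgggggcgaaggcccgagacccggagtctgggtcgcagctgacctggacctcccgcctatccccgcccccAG
PTBP1 intron 4 (chr19:804209-804291, plus strand): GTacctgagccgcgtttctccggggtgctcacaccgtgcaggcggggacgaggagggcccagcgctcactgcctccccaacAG
OGT intron 10 (chrX:71557106-71557194, plus strand): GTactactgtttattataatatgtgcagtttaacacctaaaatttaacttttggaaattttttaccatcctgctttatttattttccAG

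Their median length was 86 nt, with quartiles of 80 and 93 nt, and their median GC content was 61.2%, with quartiles of 47.6% and 68.3%. GT at the 5′ end and AG at the 3′ end were present in 2945 of the 3049 introns (96.6%), GC and AG in 70, and AT and AC, the ends that some introns of the minor spliceosome have, in 3. Chromosome 19, which is rich in genes and in GC, held 453 of the introns, ahead of chromosome 16 with 285. By the GENCODE annotation, 2532 lay within coding sequence, 42 in a 5′ UTR, 41 in a 3′ UTR and 64 in noncoding transcripts, and the ends of 370 were not those of an annotated intron. Of the coding introns, 1606 (63.4%) held an in-frame stop codon when read through, 681 (26.9%) held none but shifted the frame, and 245 (9.68%) left the frame open. Because of their alternative ends, 490 of the introns overlapped another one of the set, and such introns can share reads. Their inclusion can also differ widely for nearly the same bases. In SBF1, an 81-nt event was at 19.2% in siNT, and a 93-nt event with the same 5′ end was at 97.1%.

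A test was possible for 2642 introns in 1508 genes. Of the 407 others, 369 had under 5 skipping reads and 38 under 5 inclusion reads over all libraries. The knocked down gene was the check on the groups. In the skipped exon table, spliced reads of SFSWAP came to 82.1 ± 3.78 CPM (spliced reads scaled to a common library total) for siNT and to 30.2 ± 7.70 CPM for siSFSWAP (SD over 3 libraries), a log2 change of −1.46 ± 0.16 (SE, limma adjusted p = 0.000353). The cell line was checked on spliced reads of VIM, KRT18 and KRT8, which kidney epithelial cultures express and which had 38.7 to 373 CPM in every library. NEFM and NEFL, neurofilament genes that HEK293 cells are also known for, had no event in that table and so could not be checked. Of markers of other lineages, COL1A1 had at most 0.514 CPM, and PTPRC, CD3E, ALB, HBB, PECAM1 and KRT5 had no event.

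One control library stood apart. The retained intron table held 7465949 junction reads in siNT library a and between 2767079 and 4450930 in the 5 others, and the median tested intron had 190 reads in siNT a against 71 to 122 elsewhere. Among the introns called lower, siNT a had the lowest inclusion of the 3 siNT libraries in 53 of 54, and it did so in 417 of the 634 uncalled introns at 20% or more in siNT, where its median was 34.8% beside 47.7% and 52.7% in siNT b and c. Its median inclusion over these 54 introns was 29.6%, between the 50.4% and 56.9% of siNT b and c and the 12.5% to 15.3% of the siSFSWAP libraries. The part of depth in this difference between control libraries was not tested, and the counts of calls are given with and without siNT a.

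Most of the tested introns had low inclusion in both groups. Over the tested introns, the middle value of inclusion stood at 6.08%, 8.30% and 8.87% for siNT a, b and c, against 5.44%, 6.31% and 6.19% for siSFSWAP a, b and c, so siSFSWAP b and c lay within the siNT range and siSFSWAP a below it. The median change, siSFSWAP minus siNT, was −0.884 percentage points, beside −0.515 over tested introns of any length. Introns could fall by the 20 points that a call required only where siNT inclusion reached 20%, which 688 of them did.

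Inclusion was lower in siSFSWAP for 54 introns in 44 genes and higher for 1, where a call needed an adjusted p no higher than 0.05 with a change of 20 points or more (two-sided quasi-binomial F test with limma moderation, Benjamini-Hochberg over all 10155 tested introns). That is 2.04% and 0.0379% of those tested, beside 1.61% and 0.148% of tested introns of any length. Of the 688 introns at 20% or more in siNT, 7.85% were called lower, beside 4.98% of the 3271 introns of any length at that level. The 54 had medians of 45.1% for siNT and 14.8% for siSFSWAP, and the falls ranged from 20.6 to 56.7 points. All siNT libraries were above all siSFSWAP libraries in each of the 54. Over all tested introns up to 100 nt this held for 497 (18.8%), and the reverse for 141 (5.34%), beside 15.3% and 6.02% of tested introns of any length. Without siNT a, 192 introns were called lower and 4 higher. Without any 1 of the other libraries, between 2 and 35 were called lower and none higher, and limma on the log2 odds of inclusion called 0 in either direction, with 439 lower and 76 higher at an unadjusted p under 0.05.

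**Figure D1:**
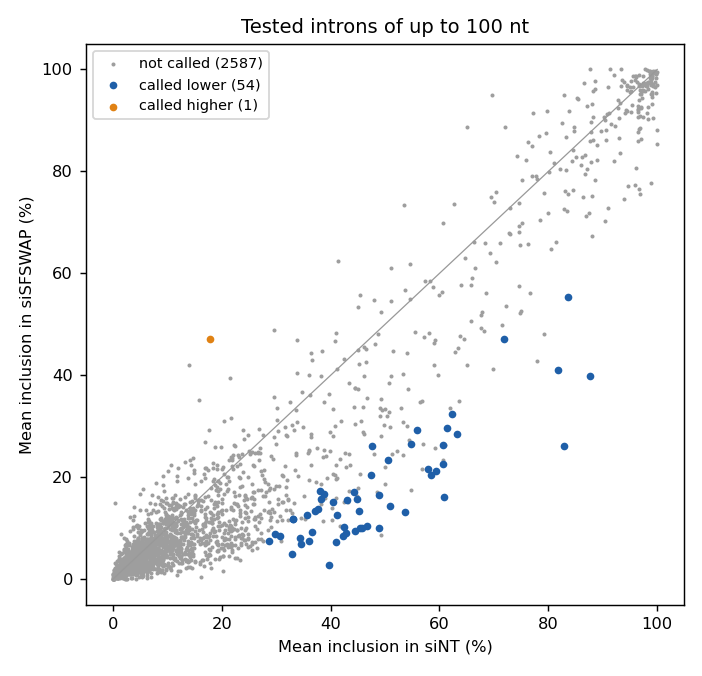
Mean inclusion in siNT (x axis, %) and in siSFSWAP (y axis, %) of the 2642 tested introns of up to 100 nt, with the line of equal values. The 54 introns called lower (blue) lie below the line between 28.7% and 87.7% in siNT, and the 1 called higher (orange) lies above it.

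The size of the change differed with the level in the controls. For 957 introns under 5% in siNT the median change was 0.0100 points, for 444 at 10% to 20% it was −4.36 points, for 302 at 20% to 40% it was −11.6 points and for 129 at 40% to 60% it was −18.7 points. It was then smaller, at −6.81 points for 73 introns at 60% to 80%, −2.26 points for 55 at 80% to 90% and −1.48 points for 129 above 90%. The introns were sorted by siNT values that also enter the change, so the medians are a description, with no test. In the group at 40% to 60%, the library medians were 35.8%, 51.3% and 56.6% for the siNT libraries a to c, and 27.7%, 29.7% and 28.4% for the siSFSWAP ones, so siNT a was nearer to the siSFSWAP libraries than to the other controls.

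**Figure D2:**
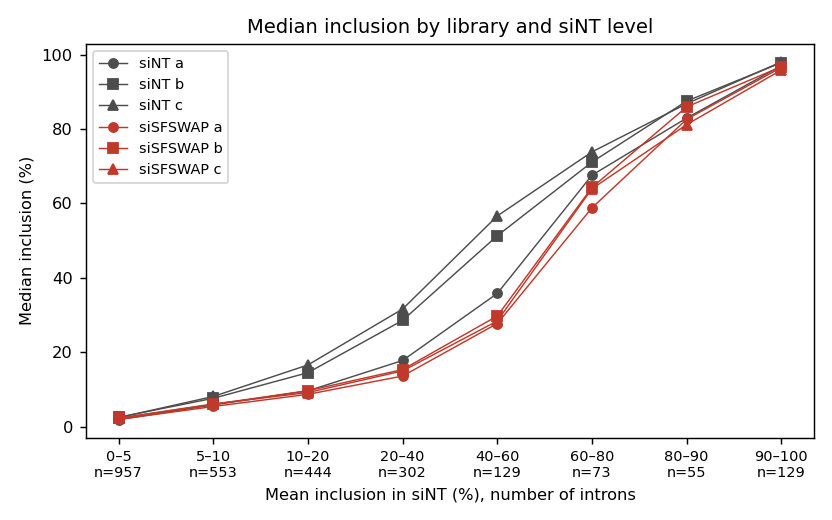
Median inclusion (y axis, %) of the tested introns in each library, for introns grouped by mean inclusion in siNT (x axis, %, with the number of introns). Between 20% and 60% siNT b and c lie highest, siNT a lies between them and the siSFSWAP libraries, and the 3 siSFSWAP libraries lie together.

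Side by side and with no test between them, longer introns of the same table had these values. The share called lower was 2.04% up to 100 nt, 1.71% of 4900 introns above that and up to 300 nt, 1.18% of 1781 introns above 300 and up to 1000 nt and 0.481% of 832 introns above 1000 nt. For introns at 20% to 80% in siNT, the median change was −12.3 points in 504 introns of up to 100 nt, −10.3 points in 812 of the next class, −2.02 points in 376 of the class up to 1000 nt and 1.29 points in 151 above 1000 nt. Median GC content of the tested introns went from 61.7% in the shortest class through 56.4% and 50.5% to 42.3% in the longest, so length and base composition moved together. At the length limit, 1 of 61 tested introns of exactly 100 nt was called lower, as were 3 of 66 that were 1 nt longer.

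The introns called lower and the 634 uncalled ones at 20% or more in siNT had the same median length, 85 nt. Median GC content was 70.6% in the called introns, none of which was under 50%, and 64.4% in the uncalled ones, of which 110 were under 50%. GC content was over 70% in 28 of the 54 called introns (51.9%) and in 149 of the 634 others (23.5%). The sets also differ in siNT inclusion. Of the uncalled introns, 129 were above 90% in siNT, with a median GC content of 57.8%, and no called intron was above 90%. The trinucleotide GGG, searched on the gene's strand with overlapping matches counted, was present in 50 of the 54 (92.6%), in 77.8% of the uncalled ones and in 75.8% of all tested introns of up to 100 nt, and G-rich introns have more such matches by composition alone. In the 18 bases before the final AG, the median share of pyrimidines was 75% and 72.2%, and that of T alone 22.2% and 27.8%. The 9 bases around the 5′ splice site matched the consensus, CAG at the end of the exon and GTAAGT at the start of the intron, at a median of 6 positions in both sets. All 54 began with GT and ended with AG.

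Grouped by GC content, among introns at 20% to 80% in siNT, the 50 introns of at most 45% GC had a median change of 0.192 points and no call in the quasi-binomial test, with 1 lower and 1 higher at an unadjusted p under 0.05 (2% each). The 39 introns between 45% and 55% had a median of −10.4 points, the 150 between 55% and 65% one of −14.7, the 214 between 65% and 75% one of −13.3 and the 51 above 75% one of −16.1. Calls made up 2.56%, 10%, 10.7% and 21.6% of these 4 groups. The same grouping over introns of any length gave medians of 0.381, −3.65, −10.7, −12.8 and −16.5 points. Across the 504 short introns Spearman's rho between GC content and change was −0.28, and across the 440 of them above 50% GC it was −0.07. These points share libraries and depth and are given as a description.

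**Figure D3:**
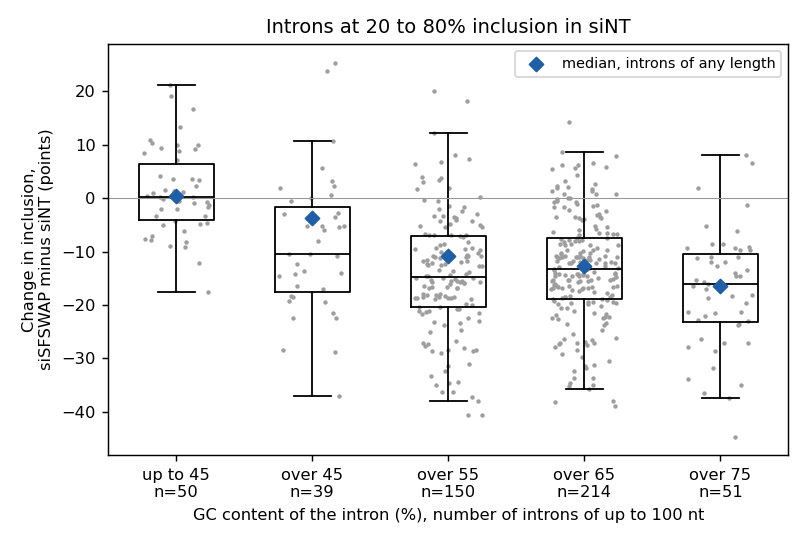
Change in inclusion (y axis, siSFSWAP minus siNT, percentage points) of introns of up to 100 nt with 20% to 80% inclusion in siNT, by GC content (x axis, %, with the number of introns). Points are introns, boxes show median and quartiles, whiskers reach up to 1.5 box lengths, and blue diamonds are medians over introns of any length. The box of the introns with at most 45% GC sits around 0, and the others lie below it.

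IFRD2, which encodes an interferon-related protein that binds ribosomes, is one of the genes that the study followed. Its intron 3, of 93 nt, had an inclusion of 38.8%, 62.4% and 59.9% across siNT a, b and c, against 16.0%, 10.9% and 12.7% across siSFSWAP a, b and c. It fell from 53.7% ± 12.98 to 13.2% ± 2.58 (SD, n = 3), by 40.5 points, with a log2 odds change of −2.71 ± 0.40 (SE, quasi-binomial adjusted p = 0.00121), and it was called whichever library was left out. Every siSFSWAP library was well below the lowest control.

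The neighbouring IFRD2 intron 2, of 87 nt, was included at 22.4%, 40.5% and 45.4% in siNT and at 6.68%, 8.96% and 6.70% in siSFSWAP. It fell by 28.7 points (adjusted p = 0.00186). The remaining annotated IFRD2 introns of this length are introns 4 and 6, both of 83 nt, and neither was called. Intron 6 was at 32.3%, 58.6% and 53.1% in siNT and 23.1%, 23.6% and 27.1% in siSFSWAP (adjusted p = 0.178), and intron 4 at 17.0%, 32.4% and 46.1% and 16.3%, 10.1% and 14.3% (adjusted p = 0.137). In both, the 3 siNT values lay above the 3 siSFSWAP values, with siNT a close to them. A further IFRD2 event of 75 nt, with an unannotated end inside intron 2, was at 97.7% to 100% in every library and could not be tested. Removal of intron 2 by its own ends is not counted as removal of that event.

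GNPTG encodes the γ subunit of the enzyme that starts the mannose 6-phosphate tag of lysosomal enzymes. It was singled out after its values were seen, since it had under 50 reads on average, because its intron 2 of 79 nt (chromosome 16, 1352160 to 1352238) had the largest fall of all. Its inclusion was 77.8%, 82.5% and 88.2% in siNT and 31.8%, 18.2% and 28.4% in siSFSWAP, a fall of 56.7 points (adjusted p = 0.00270). It and IFRD2 intron 3 were the 2 introns called in all 6 fits that left out a library.

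The next largest falls named by the rule include those of NDOR1, ACADVL and WDR24. NDOR1 encodes a flavoprotein that passes electrons to the cytosolic iron-sulfur cluster machinery, and its intron 4, of 88 nt, was at 27.1%, 55.7% and 64.1% in siNT and 6.85%, 10.7% and 12.8% in siSFSWAP (a fall of 38.8 points, adjusted p = 0.00728). Its last intron, intron 13, had far higher inclusion and fell from 83.5% ± 4.36 to 55.4% ± 6.15 (SD, n = 3, adjusted p = 0.0136). ACADVL encodes the very-long-chain acyl-CoA dehydrogenase of mitochondrial fatty acid oxidation, and its introns 18 and 13 fell by 37.9 and 20.8 points (adjusted p = 0.0294 and 0.0233). Intron 18 was at 42.2%, 66.5% and 73.1% in siNT and at 11.4%, 28.5% and 28.2% in siSFSWAP. WDR24 encodes a subunit of GATOR2, which relays amino acid levels to mTORC1, and its intron 4, of 77 nt, was at 48.0%, 57.4% and 72.8% in siNT and 13.6%, 18.7% and 31.7% in siSFSWAP (adjusted p = 0.0147). In each of these introns the groups did not overlap, which the naming rule required of NDOR1 intron 4, ACADVL intron 18 and WDR24 intron 4.

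THOC6, REXO1, MAF1 and INTS11 encode proteins that act on RNA or its synthesis, and they are described together for that reason alone. THOC6 encodes a subunit of the THO complex, which couples transcription to mRNA export, and its intron 11 was at 46.2%, 64.8% and 71.1% in siNT and 27.1%, 23.7% and 28.2% in siSFSWAP (a fall of 34.4 points, adjusted p = 0.00728). REXO1, which encodes an RNA exonuclease, had only 2 introns in the set, the last 2 of the gene, and both were called. Intron 15, of 70 nt, was at 28.1%, 58.8% and 65.7% in siNT and 13.1%, 17.7% and 12.5% in siSFSWAP (adjusted p = 0.0167), and intron 14 fell by 33.8 points (adjusted p = 0.00194). The annotated microRNA gene MIR1909 overlaps intron 15. MAF1 represses RNA polymerase III, and its intron 5, of 90 nt (chromosome 8, 144106465 to 144106554), was at 26.3%, 50.1% and 57.3% in siNT and 9.70%, 8.57% and 10.4% in siSFSWAP (adjusted p = 0.00202). SHARPIN lies on the opposite strand there, and without strand the reads of the pair cannot be told apart. INTS11 encodes the endonuclease of the Integrator complex, and its intron 12, of 86 nt (chromosome 1, 1312701 to 1312786), dropped to 29.6% ± 1.85 from 61.4% ± 8.88 (n = 3 and SD for each, adjusted p = 0.00798).

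The other introns named by the same rule lay in genes of varied roles. In CDK10, which encodes a cyclin-dependent kinase, intron 7 had high inclusion in the controls, at 77.2%, 83.5% and 84.7% in siNT and 46.3%, 34.6% and 42.4% in siSFSWAP (a fall of 40.7 points, adjusted p = 0.00718). GGA1 encodes a clathrin adaptor of the trans-Golgi network, and its intron 8, whose 84 nt keep the reading frame open, was at 37.6%, 51.1% and 47.4% in siNT and 9.55%, 8.27% and 12.6% in siSFSWAP (adjusted p = 0.00331). WDR55 intron 2, of 80 nt, fell from 57.9% ± 13.8 to 21.7% ± 6.72 (adjusted p = 0.0207), and WDR83 intron 3, of 83 nt, from 63.2% ± 10.3 to 28.6% ± 8.70 (SD, n = 3, adjusted p = 0.0207). The WDR83 intron also has an annotated gene on its opposite strand. PKD1P6 is a pseudogene of PKD1 with near-identical copies, so the fall of its 86-nt intron from 58.4% ± 10.1 to 20.4% ± 7.09 (SD, n = 3, adjusted p = 0.00528) is uncertain as to its source.

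**Figure D4:**
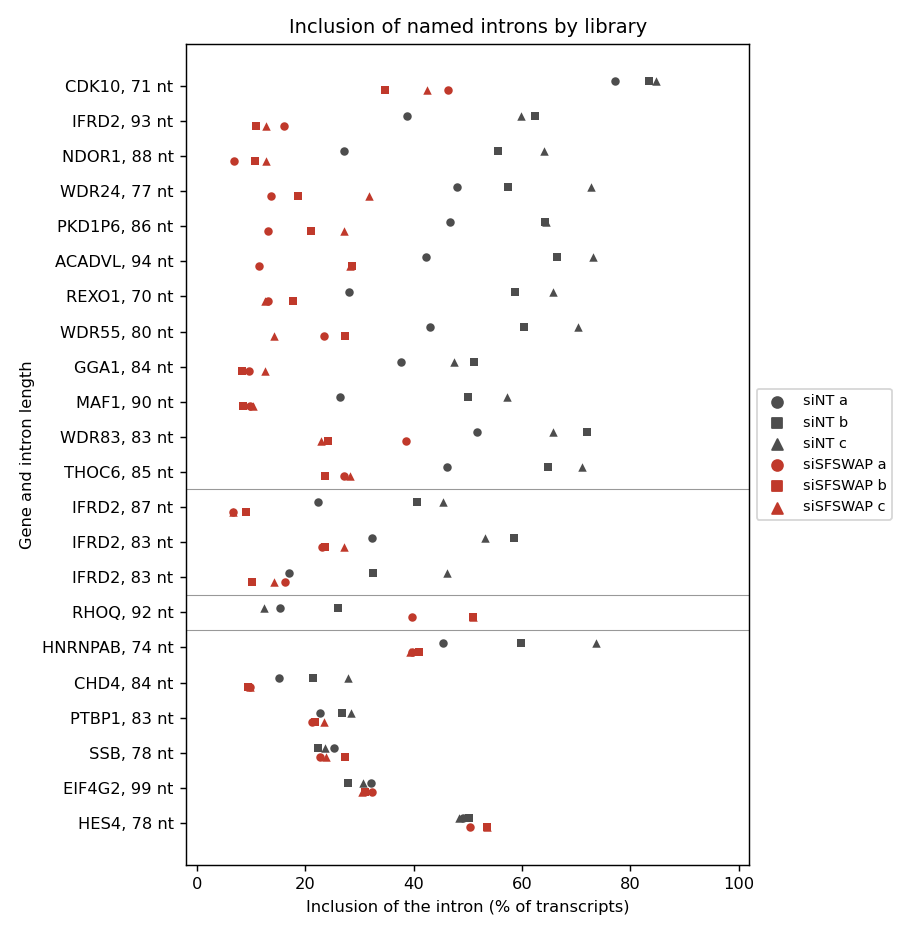
Inclusion (x axis, %) in each library of the 12 introns called lower that the naming rule took (top), 3 further IFRD2 introns, the RHOQ intron called higher, and the 6 uncalled introns with the most reads at 20% to 80% in siNT (bottom). The axis label reads % of transcripts, but the values are inclusion from junction reads as defined above. Grey is siNT, red is siSFSWAP, and circles, squares and triangles are libraries a, b and c. In the top 12, every siNT value lies to the right of every siSFSWAP value, which the naming rule required, and siNT a is the leftmost grey point.

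Leaving out 1 library ended many single calls. Of the 54 calls, 2 held in all 6 fits without a library, 5 in 5 of them, and 42 in at most 2. GGA1, MAF1 and IFRD2 intron 2 lost the call only without siSFSWAP a, at adjusted p of 0.0569, 0.0575 and 0.0569. CDK10, NDOR1, THOC6, INTS11 and the 94-nt ACADVL intron lost it without siNT b and without each siSFSWAP library, at adjusted p of up to 0.0675, 0.123, 0.0860, 0.0895 and 0.254. The introns of WDR24, WDR55 and WDR83 and REXO1 intron 15 lost it in the same 4 fits, and that of PKD1P6 without siNT b and without siSFSWAP a.

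The 1 intron called higher was in RHOQ, which encodes the small GTPase TC10. It spans 92 nt (chromosome 2, 46576657 to 46576748), has 31.5% GC and is not an annotated intron, and the antisense gene RHOQ-AS1 overlaps it. Inclusion was 15.3%, 26.1% and 12.4% in siNT and 39.6%, 50.9% and 50.9% in siSFSWAP, a rise of 29.2 points (adjusted p = 0.0352). The groups did not overlap, but the call held in 1 of the 6 fits without a library, the one without siNT a, with adjusted p of up to 0.179 in the others.

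The 6 uncalled introns with the most reads at 20% to 80% in siNT were not alike. In CHD4, which encodes a chromatin remodelling ATPase, inclusion was 15.1%, 21.5% and 27.9% in siNT and 9.70%, 9.36% and 9.83% in siSFSWAP, where the adjusted p of 0.0151 passed and the change of −11.9 points did not. In HNRNPAB, whose 74-nt intron lies in the 5′ UTR, inclusion was 45.5%, 59.9% and 73.7% in siNT and 39.7%, 40.9% and 39.3% in siSFSWAP (adjusted p = 0.0892). The 4 others had close values in both groups, and no test showed a difference. The intron of SSB, which encodes the La protein, was at 23.8% ± 1.46 and 24.7% ± 2.38, that of the translation factor gene EIF4G2 at 30.2% ± 2.21 and 31.3% ± 1.00, that of PTBP1, a splicing repressor, at 25.9% ± 2.94 and 22.1% ± 1.11, and that of HES4 at 49.3% ± 0.899 and 52.5% ± 1.88 in siNT and siSFSWAP (SD, n = 3, adjusted p = 0.345 or above). The siSFSWAP values lay above all siNT values in HES4 and overlapped them in the 3 others. CTR9 lies on the opposite strand of the EIF4G2 intron.

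Genes that the study discusses held few further introns of this length. The detained OGT intron that the study followed is not among them. OGT, which encodes the O-GlcNAc transferase, had 2, introns 10 and 17, which were removed almost completely, at 1.62% ± 0.522 and 1.81% ± 0.191 for intron 10 and 0.951% ± 0.923 and 0.647% ± 0.606 for intron 17 (siNT and siSFSWAP, SD, n = 3, adjusted p = 0.839 and 0.963). An FN1 event of 93 nt, which leaves the fibronectin reading frame open, was at 38.2%, 43.4% and 40.1% in siNT and 28.8%, 18.8% and 36.8% in siSFSWAP (adjusted p = 0.252). The GFUS intron of 91 nt was at 7.14%, 29.3% and 28.6% in siNT and 4.45%, 12.6% and 11.5% in siSFSWAP (adjusted p = 0.446), and its groups overlapped. GFUS is shown by the study beside IFRD2 as an example of increased intron excision. Its text does not say which GFUS intron was marked, so the 91-nt intron may be another one.

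The 3 shortest events were special cases. The intron of 26 nt in XBP1 (chromosome 22, 28796122 to 28796147) is not removed by the spliceosome: the stress sensor IRE1 cuts it out during the unfolded protein response, and the RNA that keeps it is the unspliced form. That form made up 86.1%, 80.1% and 73.3% in siNT and 90.1%, 93.1% and 92.6% in siSFSWAP. All siSFSWAP libraries were above all siNT libraries, but the change of 12.1 points was not called (adjusted p = 0.157), and it rested on 3 to 7 reads of the spliced form in each siSFSWAP library against 20 to 28 in siNT. The 30-nt event of HNRNPA1 was included at 99.4% to 99.8% in every library, and the event of ZNF598 spans 1 nt, which no spliceosome could remove, and was at 0% to 5.50%.

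Short introns often stand in rows in one gene, and those of a gene with a call were not all alike. In the 44 genes with an intron called lower, 10 genes had 2 such introns and none had more. These genes held 130 other tested introns of up to 100 nt. The 51 of them at 20% or more in siNT had a median change of −11.6 points, and 45 of the 51 changes were below 0. Over all 688 tested introns of up to 100 nt at that level, called ones included, the median change was −9.41 points. The share of the 688 below 0 was not counted. The 79 at less than 20% had a median inclusion of 9.85% in siNT and a median change of −3.41 points.

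The 3 genes with the most tested introns were CPSF1, SBF1 and FLNA. CPSF1 encodes the largest subunit of the factor that recognises the polyadenylation signal, and none of its 21 tested introns was called in the quasi-binomial test, with 5 lower and 0 higher at an unadjusted p under 0.05, beside 16.6% lower and 2.80% higher of all tested introns of up to 100 nt. Their siNT inclusion ranged from 0.835% to 87.8% with a median of 14.4%, and the median change was −3.08 points, with 20 of 21 below 0 and the lowest at −24.8 points. SBF1, which encodes a myotubularin-related pseudophosphatase, had 1 call among 17, a 91-nt intron that fell from 34.4% ± 14.1 to 8.06% ± 2.69 (SD, n = 3, adjusted p = 0.0262), and a median change of −3.20 points. FLNA, which encodes the actin crosslinker filamin A, had none among 14 tested introns and 4 lower at an unadjusted p under 0.05 (28.6%, beside the same 16.6%), with a median siNT inclusion of 2.75% and a median change of −1.01 points.

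The introns were also grouped by the function of their genes. Of 93 tested introns in splicing factor genes 1 was called lower (1.08%), in THOC6, and their median change was −0.224 points. Of 73 in genes of RNA export, decay and 3′ end formation 2 were called (2.74%), in THOC6 and INTS11. Kinase, phosphatase and cell cycle genes had 2 of 90, in CDK10 and in PPP1R35, which encodes a centrosomal regulator of protein phosphatase 1 and whose last intron fell by 23.8 points (adjusted p = 0.00870). Lysosome and vesicle traffic genes had 1 of 46, in GGA1. Mitochondrial and ribosomal protein genes had 4 of 65 (6.15%), of which 2 were in ACADVL and 2 in NDOR1, whose product acts in the cytosol. None of these lists held an intron called higher. Over all tested introns of up to 100 nt the share was 2.04% and the median change −0.884 points. Among introns at 20% or more in siNT, the median change was −2.08 points in the 23 of splicing factor genes and lay between −7.80 and −15.9 points in the other lists, beside −9.41 points over all 688.

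Reading through the introns called lower would in most cases end the protein. Of the 52 called introns in coding sequence, 32 (61.5%) held an in-frame stop codon, 15 (28.8%) shifted the frame and 5 (9.62%) left it open, beside 52.9%, 34.8% and 12.4% of 469 uncalled coding introns at 20% or more in siNT. The uncalled introns include some above 90% in siNT, where none was called. Of the 54, 2 were the first intron of their transcript and 6 the last, beside 9.31% and 13.5% of 548 annotated uncalled introns.

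The host genes were then read in the skipped exon table of the same 6 libraries. This readout is not independent of the retained introns, since the junctions that remove 36 of the 54 introns called lower are counted there too. Spliced reads were higher in siSFSWAP for 30 of the 44 genes with an intron called lower and lower for 0 (limma on log2(CPM + 0.5), adjusted p of at most 0.05), beside 14.7% higher and 15.6% lower of all 10780 genes fitted. At an unadjusted p under 0.05 32 were higher and 1 lower. Their median log2 change was 0.56, beside −0.0047 over all genes. In 448 other genes with an intron of up to 100 nt at 20% or more in siNT, 170 (37.9%) were higher and 54 (12.1%) lower, with a median log2 change of 0.21. In 999 genes whose tested short introns were all under 20%, 21.3% were higher and 19.4% lower, with a median of 0.01. Without the skipped exon events that count a junction of an intron called lower, 25 of the 44 genes were higher and 1 lower, and without those that count a junction of any retained intron, 18 of the 38 genes left were higher and 0 lower, with a median log2 change of 0.42. Shares over all genes were counted for the main fit only, not for these settings. Both settings were chosen after seeing the data. These reads are scaled to the library total, so they change with splicing of the exons counted and with the amount of the gene's RNA relative to other genes. The part of each was not tested.

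Among the 44 host genes, the largest rise in spliced reads was in LAMB2, which encodes a laminin chain and was picked after its values were seen, from 11.1, 7.89 and 7.398 CPM in siNT to 23.1, 20.9 and 26.9 CPM in siSFSWAP (log2 change 1.39 ± 0.16, SE, limma adjusted p = 0.000463). THOC6 went from 36.6, 24.2 and 19.5 CPM to 68.0, 68.6 and 61.0 CPM, and INTS11 from 78.3, 59.6 and 50.8 CPM to 129, 144 and 120 CPM. In all 3 the groups did not overlap. Without events that share a junction with any retained intron, LAMB2 and INTS11 had log2 changes of 1.505 and 1.05 (limma adjusted p = 0.000492 and 0.000924), and THOC6 could not be fitted. GNPTG rose by 0.93, CDK10 by 0.63 and IFRD2 by 0.41 on the log2 scale (limma adjusted p = 0.000777, 0.00466 and 0.0197). In that same setting GNPTG had 1.04 (limma adjusted p = 0.00151), while CDK10 with 0.30 and IFRD2 with 0.38 lost the call (limma adjusted p = 0.208 and 0.0708). A called intron did not always go with more spliced reads: REXO1, with both of its introns called, had a log2 change of −0.37 (limma adjusted p = 0.0644), and NDOR1 and GGA1 had −0.11 and 0.18 (limma adjusted p = 0.644 and 0.172). Without siNT a, 32 host genes were higher and 3 lower, and without any other library 24 to 27 were higher and 0 lower. The shares over all genes were not counted in these fits.

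**Figure D5:**
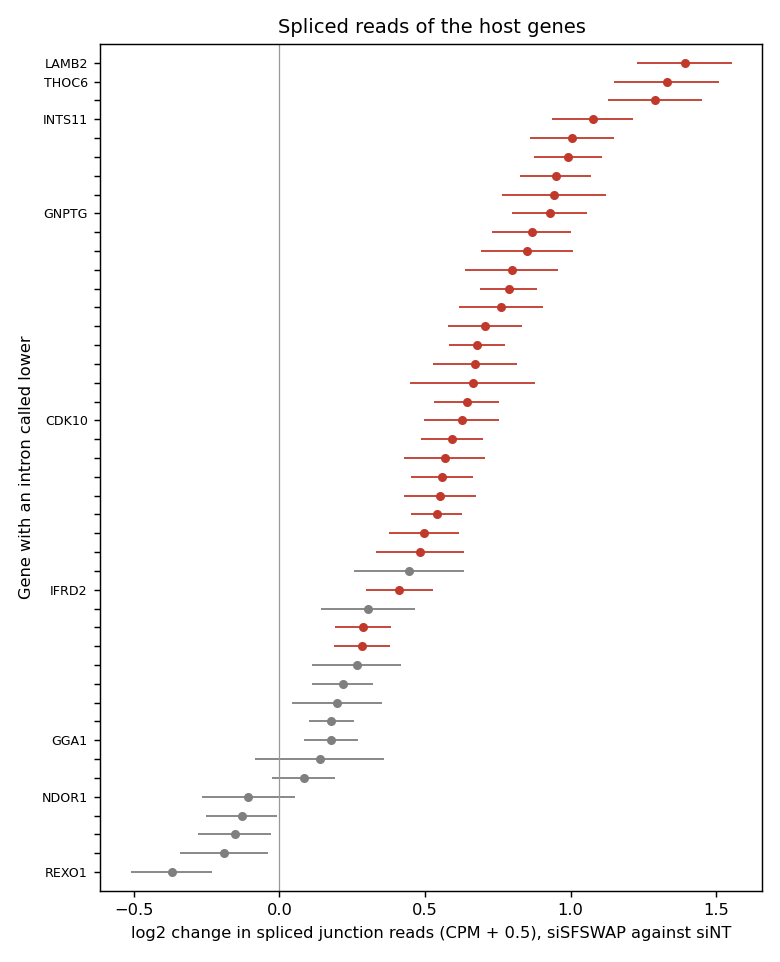
Log2 change in spliced junction reads (x axis, log2 of CPM + 0.5, siSFSWAP against siNT) of the 44 genes that hold an intron called lower (y axis, in order of change, with the genes described in the text named). Points are fitted changes and bars standard errors, and red marks the 30 genes higher at an adjusted p of at most 0.05. LAMB2 is highest at 1.39 and REXO1 lowest at −0.37.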

How the data were processed

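Polyadenylated RNA of 3 siNT and 3 siSFSWAP samples was sequenced by the authors, who per the labels trimmed reads with cutadapt 1.9.1, aligned them to GRCh38 with STAR 2.7 and counted events with rMATS. The deposited tables hold counts of inclusion and skipping junction reads, 3 libraries to a cell without replicate numbers, so libraries are called a, b and c by their place in the cell. The first set was taken as siNT from the study's definition of the inclusion difference, and SFSWAP reads checked it. The tables also hold the authors' p-values, FDR and inclusion differences, which were not used. The labels call the samples of a group biological replicates, which the study defines as cells passaged separately.

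Inclusion was (inclusion reads / effective length) as a percent of that plus (skipping reads / effective length), with an inclusion length of 179 nt at 80 nt of intron and a skipping length of 99 nt. Longer introns have longer inclusion lengths, and a read over a junction cannot show that an intron was kept whole. Retained intron events averaging 20 or more reads a library, with at least 5 reads of each form and reads in at least 2 libraries of each group were tested with a quasi-binomial F test, its dispersion moderated over all of them with limma 3.58.1 (R 4.3.3) and held at 1 or above. Spliced reads per gene in the skipped exon table, at a mean of at least 20, were fitted with limma on log2(CPM + 0.5). The scripts were tested on simulated data. Introns were placed in transcripts of GENCODE release 44. Intron members and gene lists were chosen with earlier results of these data known. Named introns are the 12 called lower with the largest change (1 per gene, at least 50 reads, no overlap), those called higher, the 6 uncalled with the most reads at 20% to 80% in siNT, those of genes the study discusses, those of the 3 genes with the most tested introns, the 3 shortest and those called in a gene list. SFSWAP, ARGLU1 and SF3B1 held none. Whether reads were counted by strand is not stated in these sources. A few results for single genes are not reported here.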

Additional observations from a re-analysis of the deposited data

How the results depend on the processing

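The median change of the tested introns was below 0 under every alternative run, between −1.35 and −0.594 points. The number of introns called lower, 54, and higher, 1, depended on the libraries. Without siNT a, 192 were lower and 4 higher, and without siNT b, siNT c, siSFSWAP a, siSFSWAP b or siSFSWAP c, 7, 35, 2, 13 and 8 were lower and 0 higher. A mean of at least 50 reads left 35 and 0, a change threshold of 10 points gave 90 and 3, limma on the log2 odds gave 0 and 0, dispersion without a trend gave 0 higher beside 43 lower, and a limit of 80 nt gave 14 and 0. Fewer introns enter under the read minimum and the length limit, and the cause of the other differences was not tested. Counts stayed within 1.5 times for raw counts without lengths, no minimum for either form, 1 event per intron, GT-AG introns and a limit of 120 nt. The log2 change of SFSWAP spliced junction reads lay between −1.58 and −1.23 without 1 library. Calls among host genes numbered 30. They numbered 18 without skipped exon events that share a junction with any retained intron, where fewer genes and events enter. The share over all genes was not counted there. This setting was added after seeing the data. No paired analysis was possible because the libraries in the tables carry no replicate numbers. Depth limits the test to introns with enough reads of both forms: the median tested intron had 71 to 190 reads per library.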

Other observations

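Inclusion counts only an event's own junction as removal, so a high value need not mean that the sequence was kept. The 75-nt IFRD2 event was at 100% in siSFSWAP, while intron 2 around it was at 7.45%. Events whose ends are not those of an annotated intron were mostly at high inclusion in this sense. Of 370 such events up to 100 nt, 331 (89.5%) were included above 90% in siNT, beside 167 of 2679 annotated introns (6.23%). Of these events 89 could be tested, with 0 called lower and 1 called higher, the RHOQ event, with 10 lower (11.2%) and 5 higher at an unadjusted p under 0.05, beside 16.6% and 2.80% of all tested introns of up to 100 nt. The quasi-binomial test called none of the 38 tested introns with GC and AG ends, whose median inclusion in siNT was 61.9%, and none of the 29 in a 5′ UTR or the 31 in a 3′ UTR. At an unadjusted p under 0.05, 3 (7.89%), 5 (17.2%) and 4 (12.9%) of these were lower and 0 higher, which can be read against the same shares.

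The 3 introns with AT and AC ends were spread over the whole range of inclusion. The 78-nt event of SLC44A1, a choline transporter gene, was at 96.1% ± 1.45 in siNT and 98.6% ± 2.41 in siSFSWAP, the 69-nt intron of CCDC82 at 48.7% ± 3.29 and 48.2% ± 3.36, and a 99-nt intron of ENSG00000285238 at 5.94% ± 1.62 and 5.33% ± 1.20 (SD, n = 3, limma-moderated adjusted p = 0.677, 0.821 and 0.821). In these introns siNT a did not have the lowest inclusion of the controls except in SLC44A1.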
